A study of Homo sapiens with 6 samples.

Results

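The interferon-stimulated genes and the genes of MHC class I antigen presentation were examined in SHSY5Y cells (SH-SY5Y), an established human neuroblastoma line, after exposure to the organochlorine insecticide endosulfan. Members were taken from a list of 40 symbols, which name 39 genes because DDX58 is the older symbol of RIGI. A gene counted as measured when at least 1 probe set of the array named it and no other gene, and 37 of the 39 were measured, of 18132 genes in all. STAT2 and USP18 had no such probe set and were not analysed here. The 37 genes were covered by 88 probe sets, 14 genes by 1 and 23 by several, and each gene was represented by its brightest probe set, the one with the highest mean over the 6 arrays.

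There were 3 arrays of cells given 3 µM endosulfan for 24 h and 3 arrays of control cells, each a biological replicate by its title. The labels name neither the culture nor the passage of an array, nor any vehicle for the controls. All cells were of 1 line kept in serum-containing medium, and p-values measure the spread between these arrays, which may be technical. Values are log2 RMA values, in which 1 unit is a doubling of signal, and values of single arrays are given in the order of replicates 1, 2 and 3. The line's labelled identity was matched by the array: 15 of 18 adrenergic neuroblastoma markers were measured, at control means from 7.65 to 13.19, among them GATA2, HAND2 and DBH. The median log2 difference of these 15, endosulfan minus control, was -0.31. Of the 15, 0 passed the adjusted test, and 6 were lower in every endosulfan array with an unadjusted p below 0.05 (40%, beside 10.5% of all genes), among them ISL1 at -1.33, ELAVL4 at -1.09, STMN2 at -1.05 and RET at -0.94. Their part in the members' values was not tested.

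Type I interferons bind a pair of receptor chains whose kinases, JAK1 and TYK2, activate a complex of STAT proteins and IRF9. That complex enters the nucleus and binds the interferon-stimulated response element, a short promoter motif, and switches on genes that block viral entry, translation and replication. Interferon also raises the transporter and light chain of MHC class I, which display peptides to T cells, and neuroblastoma cells are known for low class I display.

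The shared promoter motif is shown first because most members hold it. The core of the response element, GAAANNGAAA on either strand, was searched in windows of 300 bases, from 250 before to 50 after each RefSeq gene start of GRCh38.p14. Such a window was at hand for 31 of the 39 genes, and 25 of the 31 (80.6%) held the core in at least 1 window. Among all 27305 genes of the table the share was 4.38%, and among its 35116 windows 3.57%. The core was not found in the windows of RIGI, STAT2, IRF1, IRF9, OAS1 and IFI35. A match describes these letters only and is not evidence of a bound site. In the 50-base stretches below, read 5′ to 3′ on the gene's own strand, capitals mark each core, including overlapping copies. ISG15, IFI6, TAP1 and TAP2 are shown because they are 4 of the 5 members with positive differences and an unadjusted p below 0.05. IFIT1, BST2, CXCL10 and B2M are shown as members that hold the same core and did not reach that p in the limma fit over genes. CXCL10 was close to it, with an unadjusted limma p of 0.051 over genes and 0.046 in the fit over probe sets.
ISG15 (chr1:1013364-1013413, + strand): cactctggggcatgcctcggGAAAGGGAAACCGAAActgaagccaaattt
IFI6 (chr1:27672319-27672368, - strand): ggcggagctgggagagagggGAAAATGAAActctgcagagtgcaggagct
TAP1 (chr6:32853809-32853858, - strand): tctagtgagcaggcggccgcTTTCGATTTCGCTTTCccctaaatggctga
TAP2 (chr6:32838768-32838817, - strand): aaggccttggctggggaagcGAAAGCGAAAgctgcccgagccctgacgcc
IFIT1 (chr10:89392487-89392536, + strand): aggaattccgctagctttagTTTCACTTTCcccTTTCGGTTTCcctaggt
BST2 (chr19:17405731-17405780, - strand): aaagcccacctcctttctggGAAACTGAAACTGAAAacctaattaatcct
CXCL10 (chr4:76023689-76023738, - strand): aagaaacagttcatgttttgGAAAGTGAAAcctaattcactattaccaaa
B2M (chr15:44711353-44711402, + strand): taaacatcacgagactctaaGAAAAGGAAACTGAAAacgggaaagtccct
The core of ISG15 begins 113 bases before the gene start, that of TAP2 58 bases and that of IFIT1 116 bases. Among measured members with a window, the 25 with a core had a median log2 difference of 0.17 and the 5 without one a median of 0.11. Of these, 20 of the 25 and 4 of the 5 were positive.

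At baseline most members were dim. The control mean was below 4.89, the lowest array median, in 22 of the 37 members and above the highest array median of 4.94 in 15. Array medians were taken over all tested probe sets, whereas each member is its brightest probe set. When all genes so represented were split into 4 equal bins by level, 15 members lay in the dimmest and 11 in the next. Probe sets differ in how well they bind, so these values place a gene in the signal range and do not rank transcript amounts. As a guide to dim signal, 26 genes that are restricted to other tissues, such as albumin and milk, lung and sperm proteins, had control means from 2.70 to 7.19 with a median of 4.26. Of the members, 34 lay at or below the top of that range and 15 at or below its median. IRF7, IFI6 and B2M were the 3 above it, at 7.36 ± 0.37, 7.21 ± 0.24 and 10.19 ± 0.67 (SD, n = 3 each). The array's 23 background probe sets, graded by G and C content, had control means from 2.19 to 10.49, so no single value marks background for all probe sets. For the 34 members at or below the top of the other-tissue range, the files do not separate a low transcript level from no transcript. IRF7 and IFI6, with 1 probe set each, lay close above that top, and the same caution holds for them. The 8 probe sets of B2M had control means from 9.16 to 10.19.

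**Figure D1:**
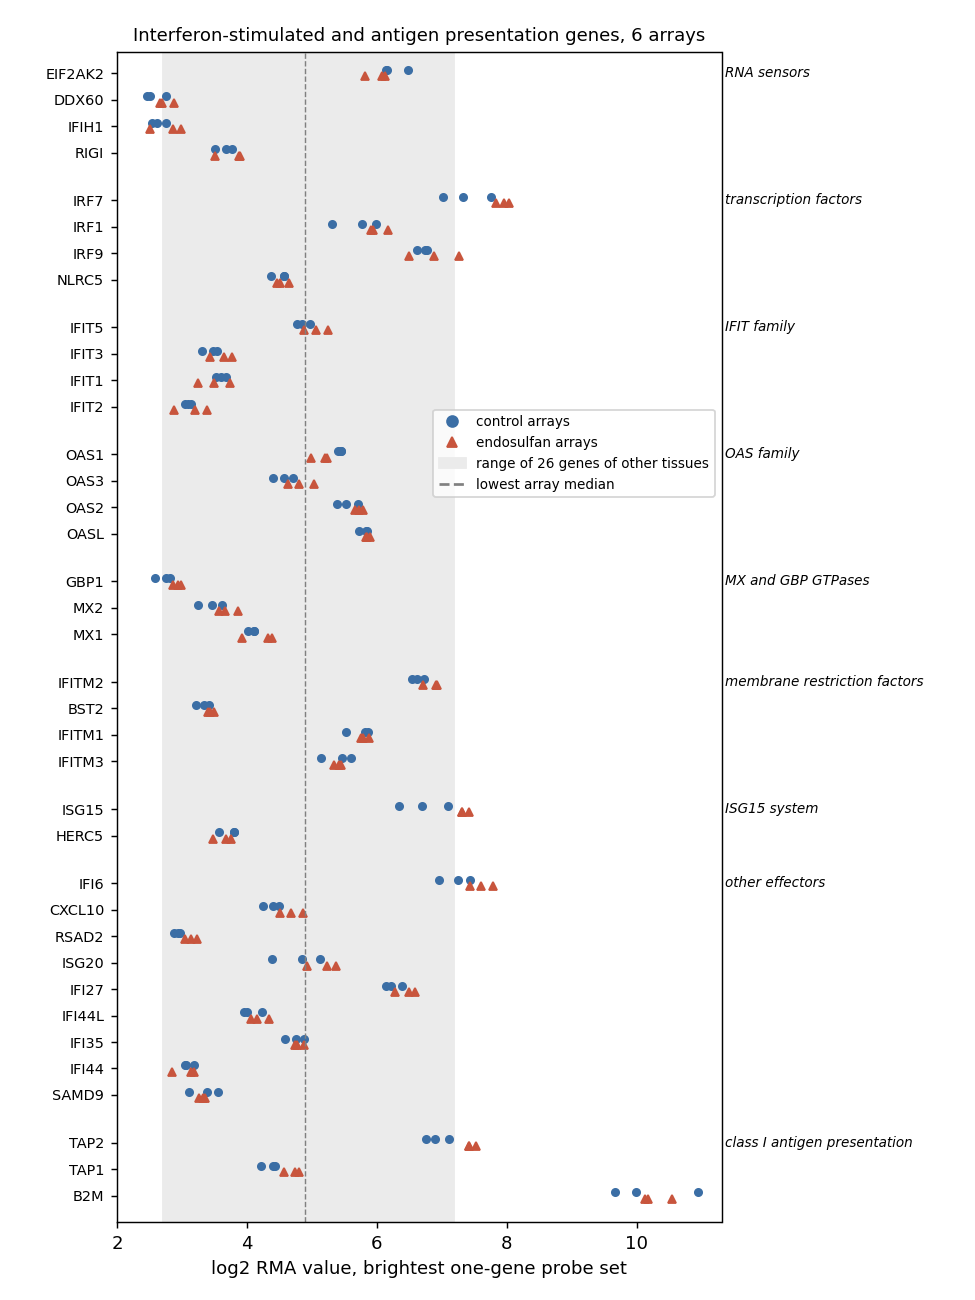
Log2 RMA values of the 37 measured members (horizontal axis) in each of the 3 control (circles) and 3 endosulfan arrays (triangles), grouped by role. The grey band is the range of control means of 26 genes of other tissues (2.70 to 7.19), and the dashed line the lowest array median over all tested probe sets (4.89). Most members lie inside the band and left of the line, and B2M lies far to the right.

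No member passed the test of endosulfan against control. With limma and Benjamini-Hochberg adjustment over all 18132 genes, 0 of the 37 had an adjusted p below 0.05, where 1 gene of all (0.00552%) did, and the members' adjusted p ranged from 0.196 to 0.992. Among their 88 probe sets 0 passed over all 49293 probe sets, where 4 of all (0.00811%) did. Of the 88, 7 (7.95%, against 6.3% of all probe sets) were positive with an unadjusted p below 0.05 and 2 (2.27%, against 9.21%) negative. With the unadjusted p below 0.05, 5 members (13.5%) were on the higher side, against 6.64% of all genes, and 1 (2.70%) on the lower side, against 10.5% of all genes. The 5 were TAP2, ISG15, IRF7, TAP1 and IFI6, and the 1 was OAS1. All 3 endosulfan values exceeded all 3 control values in 7 members (18.9%, against 12.4% of all genes). The reverse held in 2, OAS1 and EIF2AK2 (5.41%, against 10.2%).

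The differences were small and mostly of 1 sign. The log2 difference, endosulfan minus control, was positive in 31 members and negative in 6, with a median of 0.17, where 60.2% of all genes were positive and the median of all genes was 0.05. It ran from -0.29 for OAS1 to 0.64 for ISG15. The upper end of the 95% interval was below 1, a doubling, in 35 of the 37 and reached 1.07 in ISG15 and 1.01 in IRF7. The genes were also split by brightness into 4 bins of equal size. In the dimmest bin the median was 0.06 for all genes and 0.13 for 15 members. In the next it was 0.05 and 0.18, the latter over 11 members, and in the third 0.01 and 0.27, the latter over 10. B2M alone lay in the brightest bin, where the median of all genes was 0.07.

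**Figure D2:**
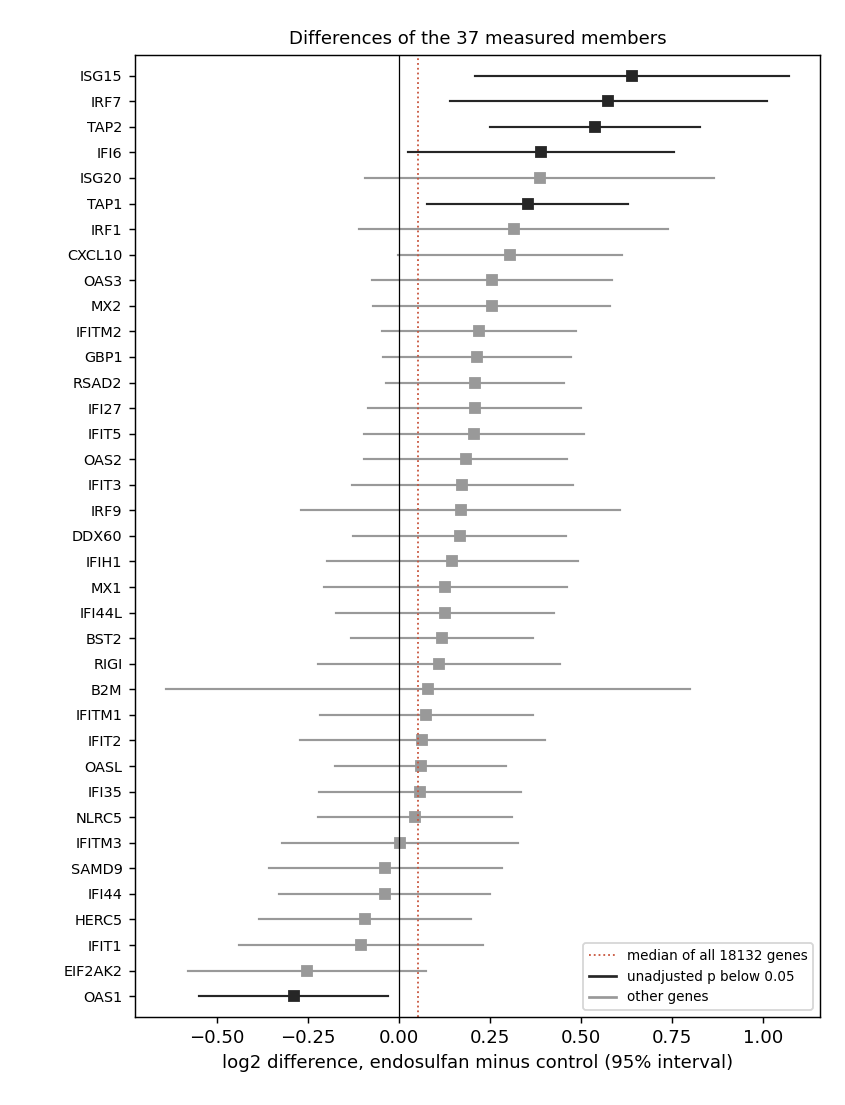
Log2 difference, endosulfan minus control, of each measured member (squares) with its 95% interval from the limma fit, ordered by size. Dark marks are the 6 members with an unadjusted p below 0.05, and the dotted line is the median of all 18132 genes (0.05). Of the squares, 31 lie right of 0, and OAS1 at the foot (-0.29) and ISG15 at the top (0.64) are the extremes.

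The members shared differences between arrays of the same group. Taking each member's deviation from its own mean over the 6 arrays, the median over the members was -0.16, 0.01 and -0.03 in control and 0.11, 0.01 and 0.11 in endosulfan arrays, so control 2 and endosulfan 2 were nearly level. The same median over all genes was -0.062, -0.002 and 0.009 in control and 0.069, -0.015 and 0.025 in endosulfan arrays, also with control 1 lowest. The poly-A spike-ins, bacterial transcripts added before labelling, were at 6.19, 7.83 and 5.84 in control and 7.90, 7.82 and 8.90 in endosulfan arrays, and their part in the members' values was not tested beyond the fits that follow. When that level entered the fit as a covariate, the members' median was 0.057, beside 0.024 for all genes. With control 2, endosulfan 1 and endosulfan 2 alone, which had like spike-in levels, the members' median was 0.040, beside 0.016 for all genes. Without control 1 and endosulfan 1 it was 0.070 beside 0.0039, and with each gene as the mean of its probe sets 0.11 beside 0.056. The background probe sets differed by -0.13 to 0.10 between the groups, with a median of 0.07 and 21 of 23 positive, beside a median of 0.13 for the members in the dimmest bin. Marker lists of other cell types had median log2 differences from -0.0014 to 0.16. Of the 5 lists, 8 of 8 endothelial markers were positive with a median of 0.16, 6 of 8 epithelial markers with a median of 0.10, 10 of 15 haematopoietic markers with a median of 0.05, 4 of 5 Schwann or glial markers with a median of 0.03 and 6 of 12 mesenchymal or fibroblast markers with a median of -0.0014. Array means of the endothelial list ran from 5.37 to 5.71 in control and 5.57 to 5.87 in endosulfan arrays, those of the epithelial list from 4.57 to 4.76 and 4.79 to 4.85, and those of the haematopoietic list from 4.16 to 4.26 and 4.22 to 4.34. For the Schwann or glial list they ran from 5.45 to 5.56 and 5.42 to 5.67, and for the mesenchymal or fibroblast list from 5.21 to 5.35 and 5.14 to 5.25. No log2 RMA value is 0, so no marker can be called absent by that measure. PTPRC, which defines leukocytes, had means of 2.86 ± 0.05 and 2.77 ± 0.17 in the control and endosulfan groups (SD, n = 3 each). It was among the dimmer of the 15 haematopoietic markers, whose control means ran from 2.49 to 6.27 with a median of 4.07. The range of the background probe sets is too wide to tell whether any of these transcripts was present. The part of such cells was not tested, and in bulk RNA fewer cells of a type and less RNA per cell cannot be told apart. Without endosulfan 2 the count of 5 members on the higher side became 8, with 8.21% of all genes there in place of 6.64%. Without endosulfan 3 it became 3, with 3.04% of all genes. The 1 on the lower side became 0 without control 2, without control 3 or without endosulfan 3. The shares of all genes on that side were then 12.5%, 7.75% and 5.88%, against 10.5% in the main comparison. Weighting arrays by their agreement (limma's arrayWeights) gave weights of 4.22 to control 3 and 5.46 to endosulfan 3, at most 0.66 to any other array. Then 14 members were called. The share of all genes called in that fit was not taken, so the 14 are not read as a result about the members. At an unadjusted p below 0.05, 19 of the 37 members were on the higher and 1 on the lower side, beside 23.4% and 21.2% of all genes.

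**Figure D3:**
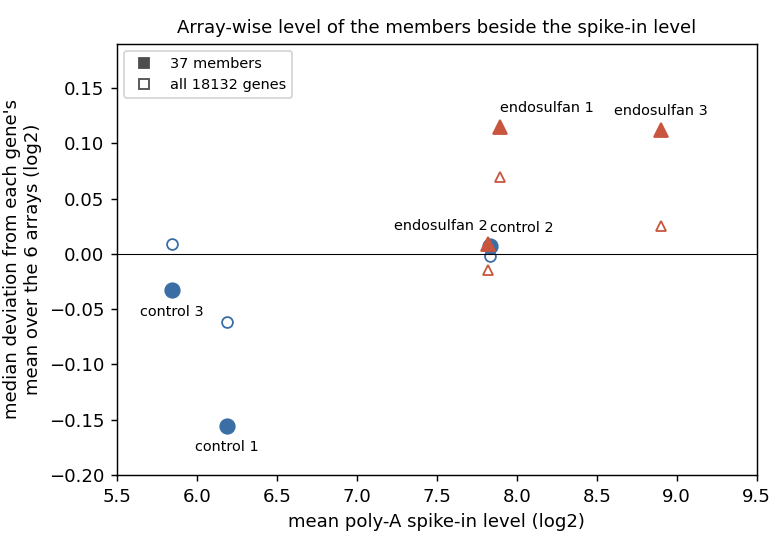
For each array, the median deviation of the 37 members from their own means over the 6 arrays (filled) and the same for all 18132 genes (open), on the vertical axis in log2 units, against the array's mean poly-A spike-in level (log2). Circles are control and triangles endosulfan arrays. Control 1 is lowest at -0.16, and control 2 and endosulfan 2 coincide near 0.01 at like spike-in levels of 7.83 and 7.82. Endosulfan 1, at a like level of 7.90, lies at 0.11, and control 3, at the lowest level of 5.84, lies at -0.03.

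The 3 class I members had positive differences, of which those of TAP1 and TAP2 had groups that did not overlap. TAP1 and TAP2 form the transporter that carries peptides from the cytosol into the endoplasmic reticulum. TAP2 was at 6.75, 7.10 and 6.89 in control and 7.52, 7.41 and 7.42 in endosulfan arrays. All endosulfan arrays lay above all control arrays, by 0.54 ± 0.12 (SE) on the log2 scale, a 1.45-fold difference with a limma adjusted p of 0.196. Its 4 probe sets were unlike: their log2 differences ran from 0.02 to 0.54, all positive, and the fourth, dimmest one was at 0.08. The mean of the 4 gave 0.25, and the spike-in covariate 0.38. TAP1 was at 4.40, 4.21 and 4.43 in control and 4.74, 4.56 and 4.80 in endosulfan arrays, again without overlap, with a log2 difference of 0.35 ± 0.12 (SE) and a limma adjusted p of 0.225. Its dimmer probe set was at 0.10, and the mean of both gave 0.23. B2M encodes beta-2 microglobulin, the invariant light chain of every class I molecule. It was at 10.94, 9.98 and 9.66 in control and 10.16, 10.54 and 10.12 in endosulfan arrays, so control 1 was the highest array and control 3 the lowest. The groups overlapped, the log2 difference was 0.08 ± 0.31 (SE), and the 95% interval ran from -0.64 to 0.80. The 8 probe sets of B2M, 2 of which held identical values, ran from -0.18 to 0.10.

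Other class I genes were followed in a list of heavy chains, chaperones, proteases and proteasome subunits, of which 17 of 18 were measured and 0 passed. On the higher side 3 were at an unadjusted p below 0.05 and on the lower side 1, which is 17.6% and 5.88% of the 17 beside 6.64% and 10.5% of all genes, and the median log2 difference was 0.11 beside 0.05. PSMB10, a catalytic subunit of the immunoproteasome, was at 8.62, 9.13 and 8.92 in control and 9.52, 9.44 and 9.40 in endosulfan arrays. Its groups did not overlap, at a log2 difference of 0.56 ± 0.15 (SE) and a limma adjusted p of 0.197, and its 3 probe sets were alike at 0.52 to 0.56. The other immunoproteasome subunits, PSMB8 and PSMB9, had log2 differences of 0.43 and 0.16 with overlapping groups, and PSMB8 was highest in endosulfan 1, at 5.78 against 4.82 and 5.04 in endosulfan 2 and 3. Among heavy chains HLA-C was at 7.71, 8.25 and 7.89 in control and 8.71, 8.11 and 8.58 in endosulfan arrays, and endosulfan 2 lay below control 2. HLA-E, a ligand of NK cell receptors, was at 5.83, 6.01 and 5.91 in control and 6.33, 6.06 and 6.26 in endosulfan arrays, with no overlap and a log2 difference of 0.30 ± 0.12 (SE). Heavy chain genes are close in sequence, so their probe sets may share signal. PDIA3, a disulphide isomerase of the peptide-loading complex, lay the other way, at 8.86, 8.69 and 8.51 in control and 7.90, 8.39 and 8.13 in endosulfan arrays, with a log2 difference of -0.54 ± 0.16 (SE) and a limma adjusted p of 0.21. Class II genes, absent from most non-immune cells, had 0 of 9 at an unadjusted p below 0.05 and a median of 0.06. HLA-DMB and HLA-DMA, the chains of the class II peptide editor, were at log2 differences of 0.15 and 0.28, HLA-DRA at 0.15 and HLA-DRB1 at 0.19.

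**Figure D4:**
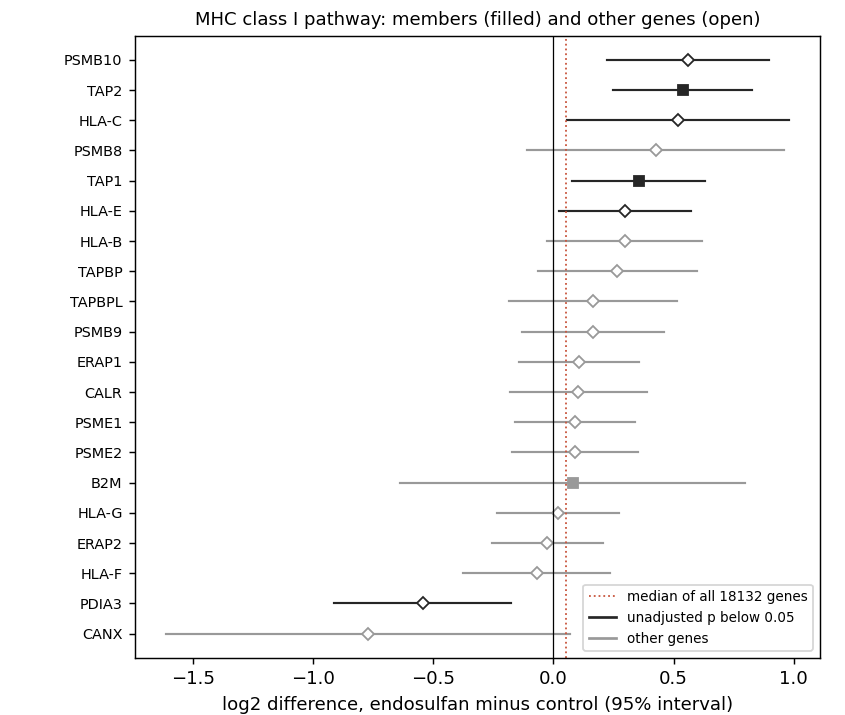
Log2 difference, endosulfan minus control, with 95% intervals from the limma fit, of the 3 class I members (filled squares) and 17 other class I pathway genes (open diamonds). Dark marks have an unadjusted p below 0.05, and the dotted line is the median of all genes. PSMB10 (0.56) and TAP2 (0.54) are at the top, PDIA3 (-0.54) and the chaperone gene CANX (-0.77) at the foot.

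All 4 measured transcription factors had positive differences. IRF7, which amplifies interferon transcription once induced, was at 7.01, 7.75 and 7.33 in control and 8.03, 7.83 and 7.95 in endosulfan arrays. Control 2, at 7.75, was the highest control array and lay just under endosulfan 2, at 7.83. The log2 difference of 0.58 ± 0.19 (SE) had a limma adjusted p of 0.22. It was 0.21 with the spike-in covariate and 0.18 with control 2, endosulfan 1 and endosulfan 2 alone. IRF1, an early factor of the interferon gamma response, was at 5.31, 5.99 and 5.77 in control and 6.17, 5.91 and 5.94 in endosulfan arrays, with control 1 low and control 2 above endosulfan 2 and 3. IRF9, the DNA-binding subunit of the complex that reads the response element, was at 6.62, 6.77 and 6.74 in control and 7.26, 6.49 and 6.88 in endosulfan arrays, and its 4 probe sets were split, 2 positive and 2 negative. NLRC5, the transactivator of class I genes, was at 4.36, 4.56 and 4.56 in control and 4.65, 4.46 and 4.51 in endosulfan arrays. Of the 4, IRF7 was the 1 whose groups did not overlap. The log2 difference of NLRC5 was 0.04 ± 0.11 (SE), with a 95% interval from -0.22 to 0.31.

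The ISG15 system gave the member with the largest difference. ISG15 is a ubiquitin-like protein that is attached to other proteins in infected cells, and its 1 probe set was at 6.34, 7.09 and 6.69 in control and 7.42, 7.31 and 7.31 in endosulfan arrays. The 3 endosulfan arrays were nearly level and the 3 control arrays spread widely, with SDs of 0.06 and 0.38 (n = 3 each). The log2 difference was 0.64 ± 0.19 (SE), a 1.56-fold difference with a limma adjusted p of 0.21. It was 0.32 with the spike-in covariate and 0.27 with control 2, endosulfan 1 and endosulfan 2 alone. HERC5, the ligase that attaches ISG15, was dim at 3.80, 3.58 and 3.80 in control and 3.47, 3.75 and 3.67 in endosulfan arrays, with overlapping groups and a log2 difference of -0.09.

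**Figure D5:**
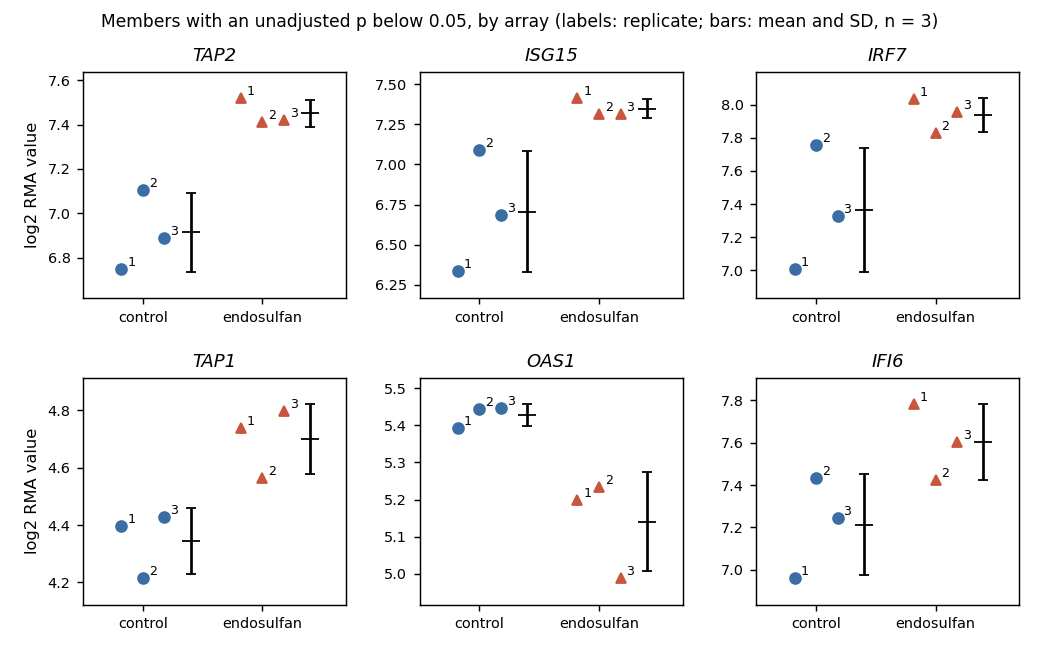
Log2 RMA values by array of the 6 members with an unadjusted p below 0.05, in order of that p. Circles are control and triangles endosulfan arrays, numbers give the replicate, and bars show the mean and SD (n = 3). In TAP2, ISG15, IRF7 and IFI6 control 2 is the highest control array and control 1 the lowest, and OAS1 is the 1 with lower endosulfan values.

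The other effectors were 9 genes with a median log2 difference of 0.21. IFI6, a membrane protein that limits flavivirus replication, was at 6.96, 7.43 and 7.24 in control and 7.78, 7.42 and 7.60 in endosulfan arrays. Control 2 and endosulfan 2 were level at 7.43 and 7.42, and the log2 difference was 0.39 ± 0.16 (SE) with a limma adjusted p of 0.271. It was 0.20 with the spike-in covariate, 0.17 with control 2, endosulfan 1 and endosulfan 2 alone and 0.17 without control 1 and endosulfan 1. CXCL10, a chemokine that draws T cells, was dim at 4.39, 4.49 and 4.24 in control and 4.87, 4.50 and 4.67 in endosulfan arrays, and its groups were barely apart, with control 2 next to endosulfan 2. RSAD2, the antiviral enzyme viperin, was dimmer still at 2.88, 2.97 and 2.93 in control and 3.13, 3.05 and 3.23 in endosulfan arrays. Its groups did not overlap either, although its second probe set had a log2 difference of -0.04. ISG20, an RNA exonuclease, was at 4.38, 5.12 and 4.84 in control and 5.37, 4.92 and 5.23 in endosulfan arrays, with control 1 lowest and control 2 above endosulfan 2. The other 5, IFI27, IFI35, IFI44, IFI44L and SAMD9, had log2 differences of 0.21, 0.06, -0.04, 0.13 and -0.04, all with overlapping groups.

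All 4 IFIT genes had control means below the array medians. IFIT proteins bind viral RNA and block its translation. IFIT1 was at 3.68, 3.52 and 3.59 in control and 3.49, 3.25 and 3.74 in endosulfan arrays, and the 95% interval of its log2 difference ran from -0.44 to 0.23. IFIT2 was at 3.05, 3.09 and 3.13 in control and 3.20, 2.88 and 3.39 in endosulfan arrays and IFIT3 at 3.30, 3.48 and 3.54 in control and 3.78, 3.43 and 3.64 in endosulfan arrays. IFIT5 was at 4.76, 4.84 and 4.97 in control and 4.88, 5.25 and 5.06 in endosulfan arrays. In all 4 the groups overlapped, and the log2 differences were -0.10, 0.06, 0.17 and 0.21 in the order of their numbers.

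OAS enzymes make the short adenylates that activate RNase L, while OASL lacks that activity. OAS1 was at 5.39, 5.44 and 5.45 in control and 5.20, 5.23 and 4.99 in endosulfan arrays on its brightest probe set, where every endosulfan array was lower and the log2 difference was -0.29 ± 0.11 (SE) with a limma adjusted p of 0.261. The other 3 probe sets of OAS1 had the opposite sign, at 0.18, 0.23 and 0.19, 1 of them with every endosulfan array higher, and the mean of all 4 gave 0.08, so the direction rested on the probe set chosen. OAS2 was at 5.52, 5.70 and 5.38 in control and 5.78, 5.66 and 5.72 in endosulfan arrays. OAS3 was at 4.40, 4.71 and 4.57 in control and 4.63, 4.80 and 5.02 in endosulfan arrays, with endosulfan 3 highest. OASL was at 5.72, 5.84 and 5.83 in control and 5.90, 5.84 and 5.84 in endosulfan arrays. In these last 3 the groups overlapped, with log2 differences of 0.18, 0.26 and 0.06.

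MX proteins and GBP1 are dynamin-like GTPases, MX1 acting on influenza and MX2 on HIV. MX1 was at 4.02, 4.11 and 4.11 in control and 4.38, 3.92 and 4.33 in endosulfan arrays, with endosulfan 2 the lowest of all 6 arrays. MX2 was at 3.24, 3.46 and 3.62 in control and 3.87, 3.56 and 3.66 in endosulfan arrays, and control 3 lay above endosulfan 2. GBP1 was dim at 2.75, 2.59 and 2.81 in control and 2.86, 2.94 and 2.99 in endosulfan arrays, where its groups did not overlap and the difference was 0.21 ± 0.11 (SE), with all 5 probe sets positive at 0.04 to 0.21.

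IFITM proteins hinder fusion of viruses with cell membranes, and BST2 (tetherin) holds budding virions at the surface. IFITM2 was at 6.54, 6.61 and 6.72 in control and 6.92, 6.70 and 6.91 in endosulfan arrays, IFITM1 at 5.52, 5.86 and 5.82 in control and 5.79, 5.88 and 5.75 in endosulfan arrays and IFITM3 at 5.13, 5.46 and 5.59 in control and 5.41, 5.34 and 5.45 in endosulfan arrays. These 3 genes are close in sequence, and their probe sets may share signal. BST2 was dim at 3.22, 3.33 and 3.42 in control and 3.43, 3.39 and 3.50 in endosulfan arrays. All 4 had overlapping groups, and the log2 difference was 0.22 in IFITM2, 0.12 in BST2, 0.08 in IFITM1 and 0.00 in IFITM3.

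Of the 4 cytosolic RNA sensors, 3 had control means below the array medians. RIGI and IFIH1 (MDA5) detect viral RNA ends and long double strands, and DDX60 is an interferon-induced helicase. DDX60 was at 2.51, 2.75 and 2.47 in control and 2.66, 2.88 and 2.69 in endosulfan arrays, IFIH1 at 2.75, 2.55 and 2.61 in control and 2.86, 2.99 and 2.50 in endosulfan arrays and RIGI at 3.67, 3.77 and 3.51 in control and 3.88, 3.51 and 3.89 in endosulfan arrays. The groups of all 3 overlapped at log2 differences of 0.17, 0.15 and 0.11. EIF2AK2 encodes PKR, the kinase that stops translation on double-stranded RNA, and was at 6.47, 6.14 and 6.16 in control and 5.82, 6.07 and 6.12 in endosulfan arrays. Every endosulfan array lay below every control array, by a log2 difference of -0.25 ± 0.14 (SE) with a limma adjusted p of 0.383, and its second probe set, at -0.38, had the same sign. The difference was -0.14 without control 1, -0.16 without endosulfan 1, -0.050 without both and -0.079 with array weights. It was -0.32 with the mean of its probe sets, and from -0.31 to -0.29 when any other single array was left out. Its sign was negative in all 16 alternatives.

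The rest of the interferon pathway was followed in 7 lists with 94 of 100 genes measured, and 0 passed. At an unadjusted p below 0.05 there were 8 on the higher and 7 on the lower side, which is 8.51% and 7.45% of the 94 beside 6.64% and 10.5% of all genes, and the median log2 difference was 0.06 beside 0.05. The interferons themselves were dim: the 7 measured had control means from 2.48 to 4.28, all below the array medians, and 0 had an unadjusted p below 0.05. IFNB1, the interferon that most cells make first, was at 3.22, 3.38 and 3.40 in control and 3.77, 3.16 and 3.39 in endosulfan arrays, and IFNG, IFNA2 and IFNE were at log2 differences of 0.18, -0.10 and 0.16. Receptors, kinases and STATs gave 0 on the higher and 1 of 10 on the lower side (10%, beside 10.5% of all genes) and a median of -0.08. The 1 was JAK1, at 8.73, 7.92 and 8.09 in control and 7.02, 8.03 and 7.34 in endosulfan arrays, whose groups overlapped at control 2 and endosulfan 2 and whose log2 difference was -0.79 ± 0.29 (SE). The log2 difference was 0.56 in IFNLR1, the lambda receptor chain, -0.41 in IFNGR1 and 0.26 in TYK2.

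Sensing and induction genes gave 3 on the higher and 2 on the lower side among 16 (18.8% and 12.5%, beside 6.64% and 10.5% of all genes). ADAR, which edits double-stranded RNA and is itself interferon-induced, was at 11.57, 10.91 and 11.13 in control and 10.39, 10.78 and 10.55 in endosulfan arrays, lower in every endosulfan array by 0.63 ± 0.19 (SE) with a limma adjusted p of 0.213, and all 6 of its probe sets were negative. MAVS, the adaptor of the RNA sensors, was at 7.69, 7.49 and 7.74 in control and 7.38, 7.30 and 7.25 in endosulfan arrays, but 4 of its 7 probe sets were positive. AIM2, a DNA sensor, was dim at 3.20, 3.34 and 3.19 in control and 3.66, 3.48 and 3.51 in endosulfan arrays. IRF3, the factor that starts interferon transcription, was at 6.79, 7.42 and 7.35 in control and 7.69, 7.55 and 7.68 in endosulfan arrays, with all 6 probe sets positive and a log2 difference of 0.45 ± 0.17 (SE). Among 24 further interferon-stimulated genes the median was 0.05, the same as that of all genes to 2 decimals. ZC3HAV1, the zinc finger antiviral protein, was at 7.46, 6.82 and 7.33 in control and 5.97, 6.45 and 6.37 in endosulfan arrays, a log2 difference of -0.94 ± 0.20 (SE) with no overlap and a limma adjusted p of 0.196, though 1 of its 4 probe sets was positive. The log2 difference was 0.30 in SP100, 0.24 in TRIM21 and 0.22 in XAF1. Negative regulators gave 1 on the higher and 2 on the lower side among 11 (9.09% and 18.2%, beside 6.64% and 10.5% of all genes). PTPN11, the phosphatase SHP2, was at 5.90, 5.36 and 5.65 in control and 4.31, 5.22 and 4.56 in endosulfan arrays, a log2 difference of -0.94 ± 0.25 (SE), with 3 of its 4 probe sets positive. PIAS1, an inhibitor of STAT binding, was at 6.38, 6.04 and 6.52 in control and 5.78, 5.83 and 5.74 in endosulfan arrays, and its log2 difference was -0.53 ± 0.14 (SE) with a limma adjusted p of 0.197. SOCS1 and SOCS3, the feedback inhibitors of JAK kinases, had log2 differences of 0.28 and 0.54 with adjusted p of 0.282 and 0.307 in the limma fit.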

How the data were processed

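Total RNA of 3 control and 3 endosulfan samples was hybridised to Affymetrix PrimeView arrays, and the deposited log2 values were made by the authors with RMA in Affymetrix Expression Console, per the submitters' processing notes. Those notes name no version or parameter. Symbols were updated through RefSeq. Of 49293 probe sets tested, 44988 named 1 gene, 1832 several and 2473 none, and 102 control probe sets were left out of the tests. The number of arrays limits the precision. Groups came from the labelled agent. Genes (brightest one-gene probe set) and probe sets were tested with limma 3.58.1 in R 4.3.3, lmFit and eBayes, on all rows, with Benjamini-Hochberg adjustment and a threshold of 0.05, after the same code was tested on simulated data. Array-level values used two-sided exact permutation tests. Figures used matplotlib 3.10.9 in Python 3.11.15. The members and lists were chosen with earlier results of these data known. Values in every array were to be given, per role or list, for up to 4 genes by smallest unadjusted p and for the member with the highest control mean; for some pathway genes only the difference is given. Genes named outside that rule were chosen after their values were seen. Alternatives were a replicate block, quantile normalization, centring, a filter on dim probe sets, array weights, robust moderation with a trend, averaging the probe sets of a gene, the spike-in level as a covariate, arrays of like spike-in level alone, 2 arrays removed, and each array left out.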

Additional observations from a re-analysis of the deposited data

Results flagged for a closer look

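Measures outside the gene comparison also differed between the groups. The mean of the hybridisation controls, which are labelled bacterial RNAs added at hybridisation, was 0.63 higher (log2) in the endosulfan arrays, at 10.22, 10.61 and 10.05 in control and 10.85, 10.80 and 11.13 in endosulfan arrays (two-sided exact permutation p = 0.1, the smallest that 3 against 3 allows). The difference between the 3′ and 5′ control probe sets of GAPDH, a measure of RNA integrity and labelling, was 0.09 larger, at 0.81, 0.74 and 0.70 in control and 0.89, 0.82 and 0.82 in endosulfan arrays (two-sided exact permutation p = 0.1). The part of either in the members' values was not tested. Groups of 3 are too small for the search for single outlying arrays.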

How the results depend on the processing

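The number of arrays limits the precision, and for dim members low and absent transcripts are not separable. The fit to control 2, endosulfan 1 and endosulfan 2 alone has a single control array and is given by its differences only. Under the other alternatives the count of members and of member probe sets called stayed at 0, except with array weights. Array weights gave 14 members and 10 probe sets called, and the share of all genes or probe sets called in that fit was not taken. With these weights 19 of the 37 members had a positive difference and an unadjusted p below 0.05, beside 23.4% of all genes. The 1 member on the lower side became 0 with quantile normalization and with the spike-in covariate, where 9.94% and 0.888% of all genes were on that side. With the covariate the 5 on the higher side became 0 too, and the share of all genes there went from 6.64% to 0.772%. The spike-in level partly follows the groups, so these falls to 0 are not read as a result about the members. The members' median log2 difference of 0.17, beside 0.05 for all genes, was 0.057 with the covariate, beside 0.024. It was 0.040 with control 2, endosulfan 1 and endosulfan 2 alone, beside 0.016 for all genes. Without control 1 and endosulfan 1 together it was 0.070 beside 0.0039, and with each gene as the average of its probe sets 0.11 beside 0.056. Leaving out each array in turn gave 3 to 8 members on the higher side, beside 3.04% to 10.1% of all genes. On the lower side it gave 0 to 1, beside 5.88% to 13.6% of all genes. The members' medians were 0.13 to 0.21, beside 0.024 to 0.079 for all genes, and 0 members were called. Deviations of same-numbered arrays correlated at -0.55, -0.47 and 0.12, and those of control 1 and endosulfan 2 at 0.61. With 3 arrays per group these correlations cannot decide whether same-numbered arrays shared a culture or day, which the labels do not say. The fit with the replicate number as a block gave 4 members on the higher and 0 on the lower side, with 0 called. The shares of all genes in that fit were 3.18% and 6.62%. Signs turned in OAS1 and in members with no unadjusted p below 0.05 in the main comparison. When a gene was the average of its probe sets, IFIT2 was at -0.034, OAS1 at 0.078 and IFI44 at 0.031. With control 1 and endosulfan 1 removed, IRF9 was at -0.065, NLRC5 at -0.076, IFITM1 at -0.022, IFITM3 at -0.13, HERC5 at 0.024 and IFI35 at -0.063. With array weights, IFIH1 was at -0.043, NLRC5 at -0.033, IFIT1 at 0.095, IFITM1 at -0.039, IFITM3 at -0.12 and IFI35 at -0.015. With the 3 arrays of like spike-in level, RIGI was at -0.079, NLRC5 at -0.0073, IFIT2 at -0.054, IFITM1 at -0.027, IFITM3 at -0.084, HERC5 at 0.037, IFI35 at -0.049 and IFI44L at -0.12. With the spike-in covariate, RIGI was at -0.10, IFIT2 at -0.065, IFITM3 at -0.043, HERC5 at 0.035, IFI35 at -0.027 and IFI44L at -0.13. Over the fits that left out 1 array, IRF9 ran from -0.022 to 0.36, NLRC5 from -0.022 to 0.083, IFIT1 from -0.23 to 0.020, IFIT2 from -0.053 to 0.20, IFITM1 from -0.031 to 0.14, IFITM3 from -0.13 to 0.10, SAMD9 from -0.16 to 0.068, IFI35 from -0.020 to 0.13, IFI44 from -0.099 to 0.064 and B2M from -0.19 to 0.46. The cause of these turns was not tested.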

Other observations

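Probe sets that name a member together with another gene were kept out of the member values. One named OAS2 and OAS3 and was at 6.97, 6.66 and 6.56 in control and 6.47, 6.28 and 6.19 in endosulfan arrays. Every endosulfan array was lower, with a log2 difference of -0.42 ± 0.14 (SE) and a limma adjusted p of 0.25 after Benjamini-Hochberg adjustment, whereas the one-gene probe sets chosen for OAS2 and OAS3 had differences of 0.18 and 0.26. A dimmer probe set of the same pair of genes was at -0.09. The probe set that names USP18, the protease that removes ISG15, with related copies was at 3.95, 4.18 and 4.23 in control and 4.48, 4.18 and 4.39 in endosulfan arrays, and its groups overlapped.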
